A study of Mus musculus with 4 samples.

Results

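The immediate early genes described here were Fos, Fosb, Junb, Egr1, Egr2, Egr3, Arc, Npas4, Nr4a1 and Ier2, which were chosen by name, and all 10 were found among the 30222 genes of the array. Each was represented by 1 probe of the 39429 on the array, and the probe of Fos was printed at 10 spots. RNA came from lumbar spinal cord slices of male ICR mice, an outbred strain, aged 5 to 6 weeks. All animals had partial sciatic nerve ligation (PSL), a model of neuropathic pain, and were sampled on day 7 after the injury, so no uninjured tissue entered the comparisons. The ligated nerve was that of the right hindlimb, and the left nerve was exposed without ligation. Adrenalectomized (ADX) mice, which drank saline and for which the array labels name no hormone replacement, were compared with sham-operated mice, in which the adrenal glands were exposed and left in place. Zeitgeber time (ZT) counts hours from lights on, and ZT10 and ZT22 were taken as the times of high and declining circulating glucocorticoid in sham+PSL mice. Each of the 4 combinations of operation and time had 1 single-colour array, all on 1 slide, and sham+PSL and ADX+PSL are written sham and ADX from here on. The side of the cord and the number of mice behind each RNA are not given in the sources used here, and without replicate arrays a ratio between conditions has no test.

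Immediate early genes are transcribed within minutes of synaptic activity, growth factors or stress, without need for new protein, by transcription factors already present in the cell such as CREB and serum response factor. Most encode transcription factors that act on later genes, and their mRNAs are short-lived. Fos is a classical marker of neurons that respond to noxious stimuli in the dorsal horn.

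Levels are the deposited normalized intensities in arbitrary units, and a level is compared only with the same probe on another array. Except in the additive model below, the ± value is the scanner software's error of a single spot, which covers the spot and neither mouse nor tissue slice. A spot is called well above background by the same software. Fos, Fosb, Egr1, Arc, Npas4, Nr4a1 and Ier2 passed that call on all 4 arrays, Junb on 3, Egr2 on 2 and Egr3 on 0. Among all probes, 65.1% to 70.1% passed it on an array, no spot was saturated, and the median level was 105 on each array. The time ratio is the log2 of the level at ZT10 over that at ZT22, and the operation ratio the log2 of ADX over sham. A gene is counted as past the limit when its ratio reached 2-fold. Where the dimmer array was not well above background, the ratio is a bound, taken against the higher of the gene's own level and the lowest level that was well above background on that array. The direction of such a bound is fixed by the rule: it favours the array that was well above background or is set to no difference.

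The arrays differed in markers of tissue other than cord parenchyma. The summed level of 4 red blood cell genes was 17904 in sham at ZT22 and between 81009 and 128665 on the other arrays. The summed level of 5 skeletal muscle genes was 2438 in sham at ZT10 and between 179 and 252 on the others. All 8 neuronal markers were well above background on all 4 arrays and none reached 2-fold in any comparison. Of 6 astrocyte markers, Gfap was past 2-fold, at 8565 in ADX at ZT10 and between 15516 and 18028 on the others. One of its dimmer probes had a log2 ratio of -0.06 between times in ADX. By their brightest probes, all 6 microglial markers were lower at ZT10 in sham, with a median log2 ratio of -0.39, and 5 were in ADX. In such bulk tissue, fewer cells of a type and less RNA per cell cannot be told apart.

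**Figure D1:**
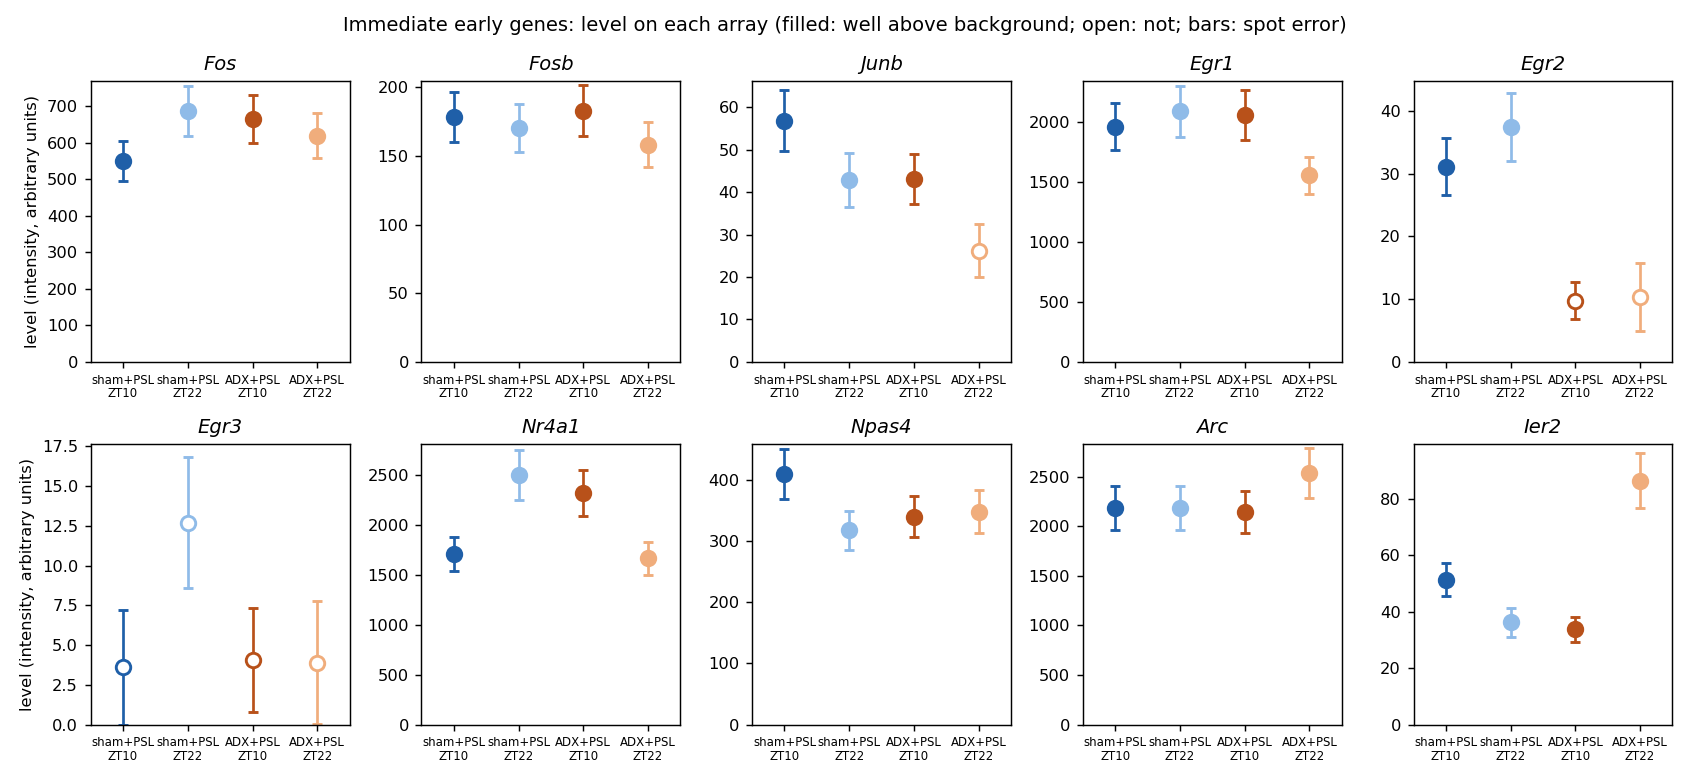
Level of each immediate early gene (vertical axis, intensity in arbitrary units, starting at 0) on the 4 arrays (horizontal axis). Points are single arrays, bars the spot error, and open points were not well above background. The levels of Egr2 lie at 31.1 and 37.4 in sham and at 9.77 and 10.3 in ADX, and Ier2 stands highest in ADX at ZT22.

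Between ZT10 and ZT22 in sham mice, none of the 9 genes measured on at least 1 of the arrays reached 2-fold, against 3.62% of all 21028 genes tested. The largest ratio was that of Nr4a1, at -0.55 ± 0.20 on the log2 scale. In ADX mice, 1 of 8 genes passed the limit, Ier2, which was 2.56-fold lower at ZT10, against 1.84% of 21220 genes that were past the limit in that direction and 2.71% in either. In ADX against sham mice, Egr2 was lower at ZT10 as 1 of 9 genes, against 2.32% of 21529 genes lower and 3.73% in either direction. Egr2 entered this comparison through its sham level only, so under the rule for bounds it could not be called higher in ADX. At ZT22, Ier2 was higher as 1 of 9, against 1.44% of 20471 genes higher and 3.26% in either direction. The median log2 ratio of the members was 0.00, 0.16, -0.03 and -0.15 in these 4 comparisons, and that of all genes lay between 0.00 and 0.01. The median size of the members' log2 ratios, without regard to sign, was 0.32, 0.32, 0.27 and 0.42, and that of all genes 0.155, 0.134, 0.147 and 0.159.

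Fos encodes a subunit of the AP-1 transcription factor, which binds DNA as a dimer with a Jun protein. The level of Fos was 550 ± 55.1 in sham at ZT10, 687 ± 68.8 in sham at ZT22, 664 ± 66.5 in ADX at ZT10 and 619 ± 62.1 in ADX at ZT22. Sham at ZT10 was the lowest array, although its spot error reached those of both ADX arrays, and the other 3 lay within their spot errors of each other. The time ratio was -0.32 ± 0.20 in sham and 0.10 ± 0.20 in ADX. A range of 1.25-fold over the 4 arrays was matched or exceeded by 44.9% of the 19061 genes well above background on all of them.

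The repeated spots of Fos allowed a closer look at the precision within an array. In sham at ZT10, the lowest, median and highest of the 10 spots were 525, 550 and 579. The spots ran from 656 through 670 to 770 in sham at ZT22, from 647 through 662 to 690 in ADX at ZT10, and from 599 through 617 to 637 in ADX at ZT22. The spots of sham at ZT10 did not overlap those of any other array, and the SD of log2 spot levels was 0.03 to 0.07. This spread describes printing and scanning of 1 RNA and says nothing of the spread between mice.

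**Figure D2:**
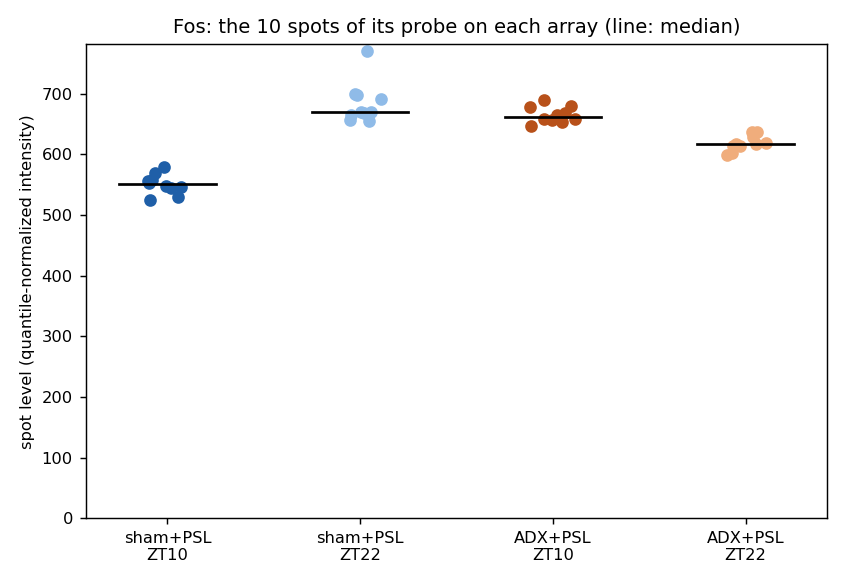
Level of the 10 spots of the Fos probe (vertical axis, quantile-normalized intensity, starting at 0) on each of the 4 arrays (horizontal axis). Points are spots, spread sideways for legibility, and lines are medians. The spots of sham at ZT10 all lie at or below 579 and those of the other arrays at or above 599.

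Fosb, a second AP-1 subunit whose truncated splice form builds up with repeated stimulation, was the steadiest member. Its level was 179 ± 18.1, 170 ± 17.4, 183 ± 18.6 and 158 ± 16.5 in sham at ZT10, sham at ZT22, ADX at ZT10 and ADX at ZT22. No array stood apart beyond the spot error, and 70.0% of genes had as wide a range.

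Junb, the Jun family partner in AP-1 dimers, had its highest level in sham at ZT10, at 56.8 ± 7.16. It was 42.9 ± 6.40 in sham at ZT22 and 43.1 ± 5.85 in ADX at ZT10. In ADX at ZT22 it was 26.2 ± 6.20, which was not well above background. The time ratio was 0.40 ± 0.28 in sham, and ZT10 was at least 1.65-fold higher in ADX. At ZT10 the operation ratio was -0.40 ± 0.27, and neither this nor the time ratio in sham was past 2-fold. The ratios that use ADX at ZT22 are bounds, so their direction was fixed by the rule and their size is open. With a background correction that adds an offset to every spot, the time ratio was 0.13 in sham and 0.08 in ADX.

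Egr1 encodes a zinc finger transcription factor that is induced together with Fos in many tissues. Its level was 1958 ± 196 in sham at ZT10, 2087 ± 209 in sham at ZT22, 2059 ± 206 in ADX at ZT10 and 1554 ± 155 in ADX at ZT22. The first 3 arrays lay within their spot errors, and ADX at ZT22 lay below them. The operation ratio was 0.07 ± 0.20 at ZT10 and -0.42 ± 0.20 at ZT22.

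Egr2, also known as Krox20, is a zinc finger factor of the same family, induced in neurons and needed by Schwann cells of peripheral nerve to form myelin. It was well above background in both sham arrays, at 31.1 ± 4.57 at ZT10 and 37.4 ± 5.44 at ZT22. In ADX it was at 9.77 ± 2.89 at ZT10 and 10.3 ± 5.39 at ZT22, neither well above background. The operations did not overlap, and ADX was at least 2.43-fold lower at ZT10 and at least 1.69-fold lower at ZT22. The bound differs because the lowest level that was well above background was 12.8 on the first ADX array and 22.2 on the second. These bounds take the sham levels without their spot errors. Between ZT10 and ZT22 in sham the log2 ratio was -0.27 ± 0.30. With a background correction that adds an offset to every spot, the operation ratio at ZT10 was -0.41 and the 2-fold call was lost.

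A marker of peripheral nerve and those of the meninges were lower in ADX, as Egr2 was. Prx, a protein of peripheral myelin, had a level of 466 and 247 in sham at ZT10 and ZT22, and of 40.9 and 36.3 in ADX. Pmp22, another marker of Schwann cells, was at 7585 and 8817 in sham and at 6577 and 8163 in ADX. Of these 2 markers, 1 was past 2-fold lower in ADX at each time. Of 6 markers of meningeal fibroblasts, 6 were past 2-fold lower in ADX at ZT10 and 5 at ZT22, with a summed level of 14703 and 12899 in sham and of 4508 and 5070 in ADX. Their part in the difference of Egr2 was not tested.

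Egr3, the third member of the family, passed the background call on no array. Its signals were 3.60, 12.7, 4.04 and 3.88 in the order of conditions given above, with spot errors of 3.28 to 4.12, and no ratio is given.

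Nr4a1, or Nur77, is an orphan nuclear receptor that is rapidly induced by depolarization and by hormones. Its level was 1705 ± 170 in sham at ZT10 and 2497 ± 250 in sham at ZT22. In ADX it was 2313 ± 231 at ZT10 and 1663 ± 166 at ZT22. A low pair, sham at ZT10 and ADX at ZT22, and a high pair, sham at ZT22 and ADX at ZT10, were each within their spot errors, and the pairs did not overlap. The time ratio was -0.55 ± 0.20 in sham and 0.48 ± 0.20 in ADX. The difference between these ratios, -1.03 ± 0.29, was matched in size by 2.93% of 19061 genes, and with 1 array per condition it has no test.

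Npas4, a transcription factor found largely in neurons and induced by calcium entry, was at 409 ± 41.0 in sham at ZT10 and 317 ± 32.0 at ZT22. In ADX it was at 340 ± 34.1 at ZT10 and 348 ± 35.1 at ZT22. Sham at ZT10 was the highest array, although its spot error reached those of both ADX arrays, and the other 3 lay within their spot errors of each other. The time ratio was 0.37 ± 0.20 in sham and -0.03 ± 0.20 in ADX.

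Arc, whose mRNA is carried to dendrites and whose protein takes part in removing AMPA receptors from synapses, was at 2185 ± 218 and 2184 ± 218 in sham at ZT10 and ZT22. It was at 2145 ± 215 in ADX at ZT10 and 2535 ± 254 in ADX at ZT22. The highest of these exceeded the lowest 1.18-fold, a range that 62.3% of genes matched or exceeded.

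Ier2, a nuclear protein of the early response to growth factors, had the largest measured ratio among the members. Its probe, shown because the only member past 2-fold with both arrays above background was read through it, lies at chr8:87186214-87186273 of mm9, on the minus strand, and has 1 reading frame without a stop codon.
Ier2 probe: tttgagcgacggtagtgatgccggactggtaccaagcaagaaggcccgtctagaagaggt
The level was 51.4 ± 5.98 in sham at ZT10, 36.3 ± 5.17 in sham at ZT22, 33.8 ± 4.38 in ADX at ZT10 and 86.4 ± 9.76 in ADX at ZT22. ADX at ZT22 lay above all others, and the lowest 2 arrays were within their spot errors. In ADX the ratio of ZT10 to ZT22 was 0.391, with a 95% interval of 0.279 to 0.547 that covers spot error only, whereas the log2 ratio in sham was 0.50 ± 0.26. At ZT22, ADX was 2.38-fold higher than sham, and at ZT10 the log2 ratio was -0.61 ± 0.25. The difference between the time ratios, 1.86 ± 0.36 on the log2 scale, was matched in size by 0.698% of genes. With the offset correction, the 2-fold calls of Ier2 were lost, with log2 ratios of -0.58 between times in ADX and 0.58 between operations at ZT22.

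**Figure D3:**
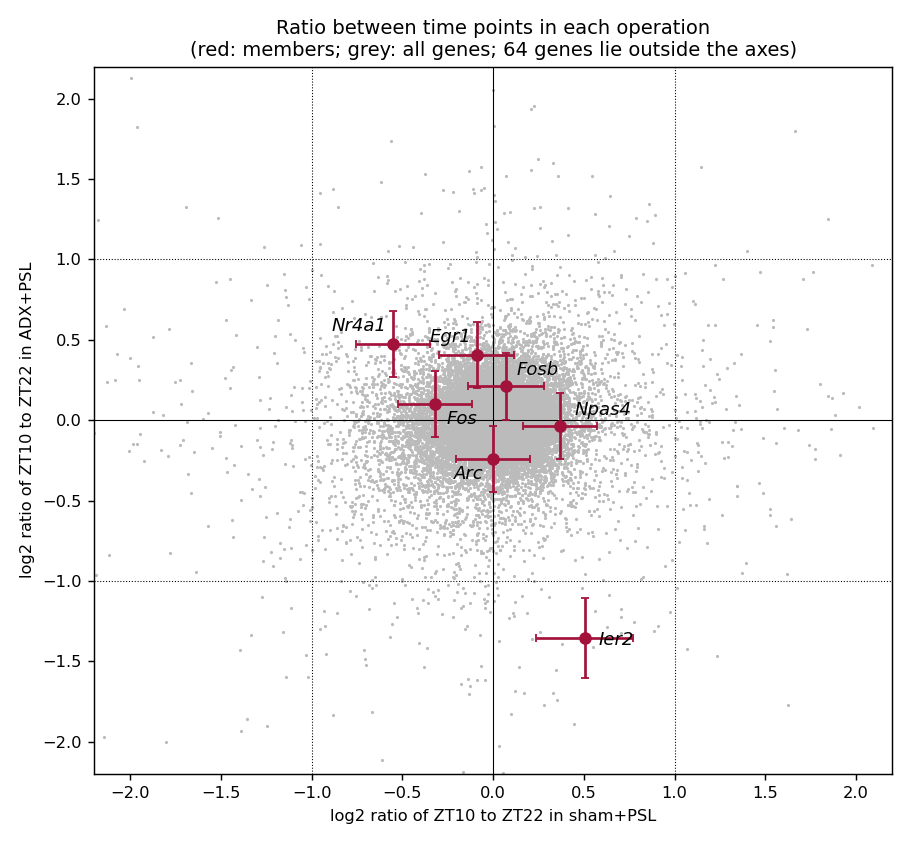
Time ratio, as log2 of ZT10 over ZT22, of sham (horizontal axis) against ADX mice (vertical axis). Red points are the 7 members well above background on all 4 arrays, with spot error bars, and grey points the 19061 genes that met the same condition, of which 64 lie outside the axes. Dotted lines mark 2-fold. Nr4a1 lies at -0.55 and 0.48, Ier2 at 0.50 and -1.36, and the other members lie nearer the centre.

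The direction of the time ratio could be set side by side in both operations for the 7 members well above background throughout. Fos, Egr1 and Nr4a1 were lower at ZT10 in sham and higher at ZT10 in ADX. Arc, Npas4 and Ier2 had the reverse signs, and Fosb was higher at ZT10 in both. Opposite signs in 6 of 7 members stood beside 48.9% of all genes. Several of these signs rest on values near 0. Arc was at 0.00 in sham and changed sign under 3 other scalings, Npas4 in ADX went from -0.03 to 0.02 with the offset correction, and Fos in ADX went from 0.10 to -0.03 without normalization between arrays. In Nr4a1 and Ier2 the signs held under each of the scalings, and in both of them the difference between the operations exceeded 3 times its spot error.

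An additive model of operation and time, fitted by limma to 21942 genes on all 4 arrays, used the disagreement between the operations as its error and had 1 residual degree of freedom. No gene passed an adjusted p of 0.05 for either effect. At an unadjusted 0.05, 6.26% of genes passed for operation and 4.86% for time. Among the 9 members tested, 2 passed the unadjusted limit for operation and 1 for time. The ± value of an effect is the standard error of the limma fit and not the spot error. Egr2 had an operation effect of -1.76 ± 0.13 (limma adjusted p = 0.624), which uses its ADX signals, not well above background, as they stand. Junb had an operation effect of -0.56 ± 0.15 (limma adjusted p = 0.77) and a time effect of 0.56 ± 0.15 (limma adjusted p = 0.956). Its signal in ADX at ZT22, not well above background, was likewise used as it stands. With a variance trend over intensity, 40 genes (0.182%) passed for operation and 12 (0.0547%) for time, and with each factor fitted alone 4 (0.0182%) and 0. No member was among any of these.

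The surrounding pathway was described through lists chosen by function. Of 12 partners and relatives of AP-1 and Egr factors, 10 were well above background on all 4 arrays, and Fosl1 and Nr4a3 on 0. One gene of this list was past 2-fold, Atf3, a stress-induced factor of the ATF family that rises in injured neurons. Its level was 2688 and 2226 in sham at ZT10 and ZT22, and 1093 and 1982 in ADX. The ADX array at ZT10 was the low one, with a log2 ratio of -1.30 to sham. The median log2 ratios of the list were -0.03 and 0.19 between times in sham and ADX, and 0.06 and -0.15 between operations at ZT10 and ZT22.

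Of 24 other early response genes, 21 were well above background on all 4 arrays. Ctgf, a matricellular protein also known as CCN2, was the only one past 2-fold. Its level was 1155 and 1581 in sham at ZT10 and ZT22, and 764 and 515 in ADX, so that the operations did not overlap, with a log2 ratio of -1.62 at ZT22. Cyr61, a relative of Ctgf named after its values were seen, was just short of the limit at ZT22, where ADX was 1.99-fold lower, and its levels were 174, 234, 159 and 118. In 10 of the 21 genes, both ADX arrays lay below both sham arrays, against 15.6% of all genes, and in 0 both lay above, against 19.2%. In 8 of the 21, ZT10 was lower in sham and higher in ADX, the direction of Fos, Egr1 and Nr4a1, against 24.1% of all genes, and 2 had the reverse, against 24.9%. The meningeal fibroblast markers given above were lower in ADX at both times, as Ctgf was, and their part was not tested.

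Of 12 neuronal targets of activity, 0 were past 2-fold in any comparison, and all were well above background throughout. The widest were Rgs4, a regulator of G protein signalling, at -0.70 on the log2 scale between operations at ZT22, the neuropeptide gene Cort at 0.49 in the same comparison, and Scg2, a secretory granule protein, at 0.48 between times in ADX. Of 18 upstream kinases, cofactors and transcription factors, 0 passed either. Elk3, an ETS partner of serum response factor, had the widest ratio, at -0.70 between operations at ZT22. Crebbp, a coactivator of CREB, was at 0.49 between operations at ZT10, and Creb1 at 0.46 between times in ADX. A dimmer probe of Crebbp, also well above background on all 4 arrays, went the other way, at -0.39 between operations at ZT10.

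Heat shock genes respond to handling of tissue and were followed beside the members. Of 6 such genes 5 were on the array and 0 passed 2-fold. Hspa1a, an inducible chaperone, was at 132 and 85.1 in sham at ZT10 and ZT22 and at 191 and 130 in ADX. Dnajb1 had a log2 ratio between times of 0.02 in sham and 0.41 in ADX, and Hsph1 of 0.38 and 0.24. By the brightest probe of each gene, ZT10 was the higher time in both operations for 4 of the 5, and Hspa8 was at -0.14 in sham and -0.09 in ADX. The dimmer probes of Hspa8 were higher at ZT10 in both operations, at 0.41 and 0.10 in sham and at 0.27 and 0.02 in ADX. The part of the heat shock genes in the levels of the members was not tested.

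**Figure D4:**
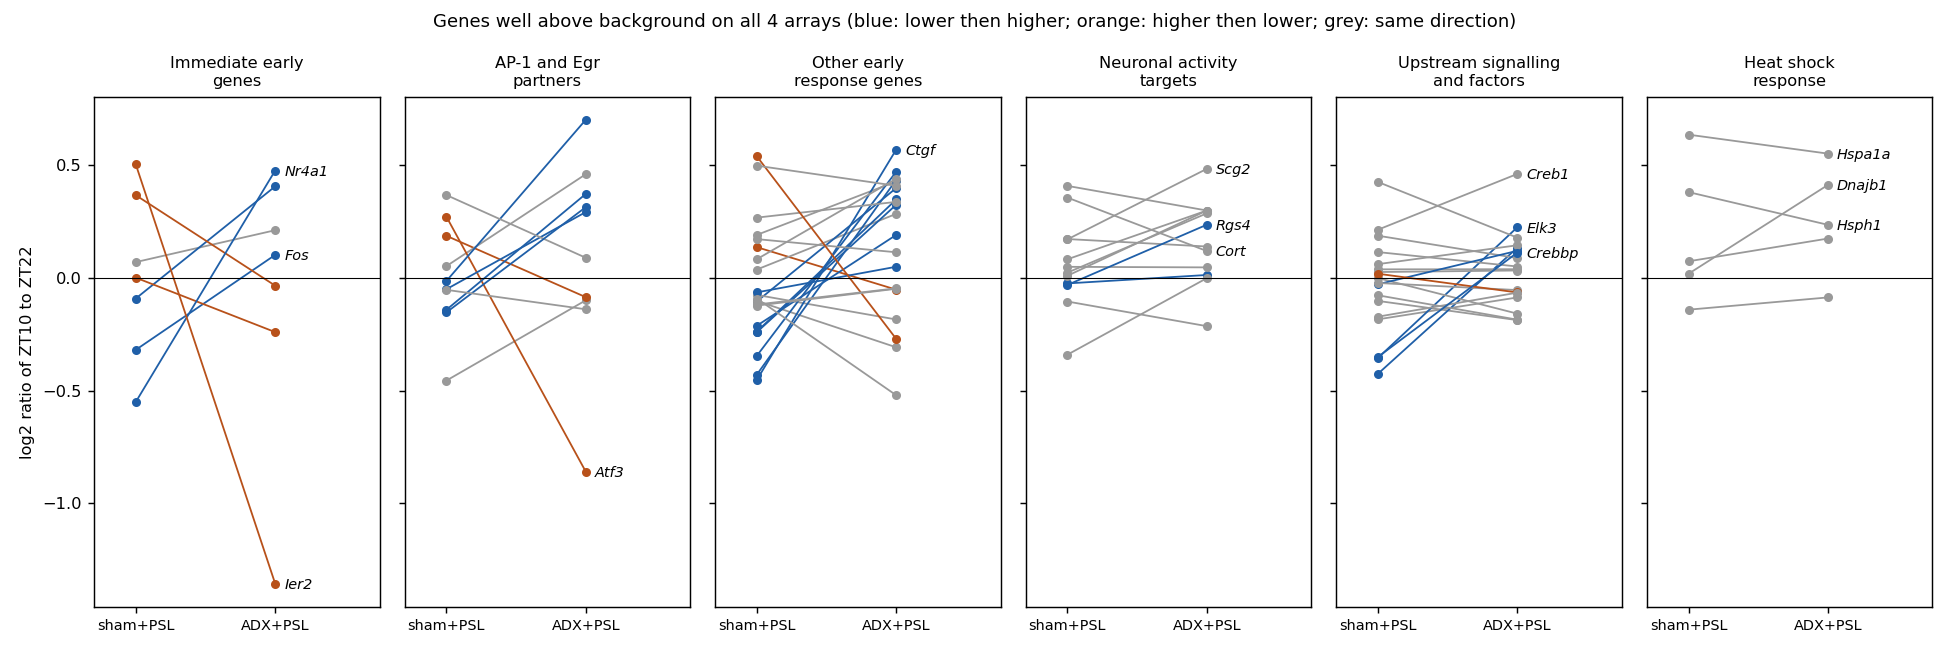
Time ratio (log2, vertical axis) in sham and ADX (horizontal axis) for each gene well above background on all 4 arrays, in the members and in 5 lists. Lines join the 2 ratios of a gene, blue from below 0 to above, orange the reverse, grey otherwise. Ier2, at 0.50 and -1.36, and Atf3, at 0.27 and -0.86, have the steepest falls.

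The mean profile of the 7 members over the 4 arrays, each centred on its own mean log2 level, had a range of 0.06 only, because their differences cancelled. The 5 nearest to it, of 17817 genes with a name in the files and in none of the lists, were 2310061C15Rik, Psma1, NAP062906-1, Prkcd and Thy1, a group that includes a proteasome subunit (Psma1), a protein kinase C (Prkcd) and a neuronal surface protein (Thy1), at distances of 0.008 to 0.012 on the log2 scale, and Thy1 for example was at 80824, 80824, 80408 and 83037. The members themselves lay at 0.15 to 1.03 from their mean.

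Promoter windows of 6 members, from 250 bases before to 50 after a RefSeq start site on GRCm38.p6, were read for motifs on both strands, among 32851 windows in all. Egr1, Egr3, Arc and Ier2 had no entry. The windows of Fos and Nr4a1 are shown up to the start site, since both genes were lower at ZT10 in sham and higher at ZT10 in ADX mice and had 1 window each. Egr2 had 5 windows, 3 of which overlapped one another, with 2 different CArG boxes among them, and 30 bases around 1 of these boxes are shown, since it was the member with the widest difference between operations. Capitals mark the matches. Fos is at chr12:85473640-85473889, Nr4a1 at chr15:101266596-101266845 and Egr2 at chr10:67537789-67537818, all on the plus strand.
Fos: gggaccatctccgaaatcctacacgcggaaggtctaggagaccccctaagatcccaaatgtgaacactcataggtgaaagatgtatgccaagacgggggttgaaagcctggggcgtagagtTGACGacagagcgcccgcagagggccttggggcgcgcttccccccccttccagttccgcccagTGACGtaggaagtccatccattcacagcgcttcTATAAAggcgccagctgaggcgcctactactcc
Nr4a1: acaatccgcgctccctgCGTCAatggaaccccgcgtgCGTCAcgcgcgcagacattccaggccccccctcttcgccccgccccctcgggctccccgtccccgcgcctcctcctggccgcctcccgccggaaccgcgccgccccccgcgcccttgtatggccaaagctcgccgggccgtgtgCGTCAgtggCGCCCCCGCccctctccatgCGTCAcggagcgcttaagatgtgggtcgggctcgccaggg
Egr2: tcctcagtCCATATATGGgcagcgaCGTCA
The core of the cyclic AMP response element, TGACG or CGTCA, was present in 8 of the 10 member windows, against 20.8% of all windows. The overlapping windows of Egr2 share the same matches. Each of the 6 genes had a window with the core, with 4 matches in Nr4a1 and 2 in Fos. The full element TGACGTCA, which contains this core, was in 0 of the 10 windows, against 1.79%. The CArG box, the core of the serum response element, was found in 4 of the 5 windows of Egr2 and in no other member, against 1.63%. An Egr motif, GCGTGGGCG or GCGGGGGCG, was in Fosb and Nr4a1, against 3.47%, and an AP-1 motif, TGACTCA or TGAGTCA, was in none, against 5.2%. TATAAA was in Fos and Junb, against 13.6%. It began at base -33 relative to the start site in Fos and at base 1, not upstream of the start site, in Junb. These are matches of letters in a short window and not measured binding sites.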

How the data were processed

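Total RNA of spinal slices was labelled with Cy3 and hybridised to Agilent whole mouse genome 44K arrays, 1 per condition. The authors deposited scanner files with processed signal intensity and a table of normalized intensity on a linear scale, whose identical distribution on the 4 arrays is that of quantile normalization; the table tracked each scanner file with r of 0.999 or above. The submitters' processing notes name Feature Extraction 9.5.1.1, and the file headers 10.7.1.1. The processed signal is background-subtracted; low values are therefore the least certain. Probe positions are those of the files (mm9), and no mm9 annotation was used here, so exon or UTR positions are not given.

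The table's levels were log2-transformed. Each gene was represented by its brightest probe over the 4 arrays. Genes were tested in a comparison when well above background on at least 1 of its arrays and counted past a ratio of 2, the limit of the study's methods. Errors of ratios combine the software's errors of single spots. The additive model was fitted with limma 3.58.1 in R 4.3.3 with Benjamini-Hochberg adjustment, after it was tested on simulated data. The number of arrays, and not counting error, limits the precision; p-values would reflect the spread between arrays, which may be technical.

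Members and lists were chosen with earlier results of these data known. All members were named; of each list of pathway genes, those past 2-fold, or else the 3 with the largest ratio; and the 5 genes nearest to the mean profile. Alternatives were other sources of the levels (quantile, 75th percentile, none, normexp with an offset of 50, pairwise quantile), the background filter, the mean of a gene's probes, a limit of 1.5, a Z-score of 2 and arrays left out. One marker gene of a list is not reported here.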

Additional observations from a re-analysis of the deposited data

Results flagged for a closer look

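Among the genes described, Lum, a proteoglycan used here as a marker of meningeal fibroblasts, was the one whose time ratios were at least 1.5-fold in opposite directions in the 2 operations. On the log2 scale, ZT10 over ZT22 gave 1.18 for sham+PSL and -0.76 for ADX+PSL, a difference of 1.94, from levels of 483, 213, 86.2 and 146. This difference was not tested, since each condition had 1 array. None of the 7 immediate early genes well above background on all 4 arrays met this description, and 101 of the 19061 genes on the same condition did.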

How the results depend on the processing

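Of the members' log2 ratios under the alternatives, 265 kept their side of the 2-fold limit and moved little, 4 moved, 3 fell below the limit and 1 passed it. With normexp and an offset of 50, the count of members past 2-fold was 0 in ADX+PSL between times, 0 between operations at ZT10 and 0 at ZT22, with log2 ratios of -0.58 for Ier2, -0.41 for Egr2 and 0.58 for Ier2; the offset narrows ratios of dim spots by construction. With genes required to be well above background on all 4 arrays, the count between operations at ZT10 was 0, because Egr2 was not tested. With no filter on background, the count was 1 of 10 between times in sham+PSL (Egr3), against 6.91% of all genes. It was 3 between operations at ZT22 (Egr2, Egr3 and Ier2), beside 6.25% to 6.91% of all genes in the other comparisons. At ZT22 Egr2 reached -1.85 with an ADX+PSL level that was not well above background. With a limit of 1.5 in place of 2, the count was 0 of 9 between times in sham+PSL, against 9.01% of all genes. In ADX+PSL it was 2 of 8 (Junb and Ier2), against 6.62%. Between operations it was 2 at ZT10 (Egr2 and Ier2) and 4 at ZT22 (Junb, Egr2, Nr4a1 and Ier2). Of all genes tested, 9.05% had as large a ratio as Ier2 at ZT10, and 8.54% as large a ratio as Nr4a1 at ZT22. Without normalization between arrays, the median log2 ratio of all genes between operations at ZT22 was 0.12. The additive fit called 0 members under each alternative, whereas over all genes it called 0 for operation and 0 for time, 10 and 6 with normexp, 12 and 7 among genes above background on all 4 arrays, and 40 and 12 with an intensity trend. Leaving out 1 array at a time, the median operation effect of the members ranged from -0.15 to -0.03 against -0.07, and the median time effect from 0.0007 to 0.10 against -0.04, with no residual degree of freedom for a test. No paired analysis was possible because each condition had 1 array and the labels carry no replicate numbers.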

Other observations

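The genes with profiles nearest to single members were looked up after the mean profile had been seen to be flat, among the 17934 genes well above background on all 4 arrays whose probe carries a gene name in the files. Nearest to Nr4a1 were Cd82, Slc43a2, Kcnh3, Rtp4 and Hoxc5, and Cd82 had levels of 11530 and 16153 in sham mice at ZT10 and ZT22 and of 15589 and 11038 in ADX mice. Fos ranked 698 and Egr1 752 in likeness to Nr4a1. Nearest to Egr1 were Smc3, Txndc9, Nab2, Taf7 and Slc8a1. Nab2, which encodes a corepressor that binds Egr proteins, ranked 3 at a distance of 0.04 on the log2 scale, with levels of 1081, 1193, 1151 and 889. Nearest to Ier2 were BC057651, Rbpms, BC021891, Gm10914 and AU016916, and the nearest, BC057651, had levels of 69.1, 46.9, 46.4 and 106. Likeness over 4 arrays is a description, since many profiles can be close over so few points.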
